A study of Homo sapiens with 12 samples.

Results

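Thalidomide was added to disulfiram in Huh7, a human hepatocellular carcinoma cell line, and gene expression of the combination was compared with that of disulfiram without thalidomide. Both groups carried disulfiram, so by their labels they differed in thalidomide only. Whether they also differed in culture, batch or library preparation is not labelled. It rests on 6 of the 12 libraries of the series, 3 of the combination and 3 of disulfiram alone. The column names carry D10 and T20 for the combination and D10 for disulfiram, with no unit, and the length of treatment is not given in the sources used here. The other 6 libraries, 3 of a control group whose column names read DMSO (a common drug solvent) and 3 with thalidomide alone, gave the level without disulfiram and the difference made by thalidomide alone. All genes with at least 1 TPM (a level divided by transcript length and scaled to the library's total) in at least 3 of the 6 compared libraries were taken, which left 14810 of 59191 features, 12388 of them protein-coding.

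Cereblon is the protein to which thalidomide binds: it picks substrates for a CUL4-DDB1 ubiquitin ligase, and the bound drug makes the ligase degrade zinc finger proteins such as IKZF1, IKZF3, SALL4 and ZNF692. That action is on proteins, and mRNA of a degraded protein need not follow it. Disulfiram inhibits aldehyde dehydrogenases, and its copper-bound metabolite aggregates NPLOC4, a cofactor of the p97 segregase that hands ubiquitinated proteins to the proteasome. Metallothioneins, which bind zinc and copper, and heat shock chaperones are known to respond to metal-loaded disulfiram.

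The 6 libraries held between 14206 and 15038 genes at 1 TPM or more. All 16 hepatocyte and hepatoma identity markers reached a mean of 1 TPM, with summed levels of 10483 to 10967 TPM in the combination and 10832 to 12217 TPM in disulfiram. Of 20 leukocyte markers, 4 did so (CD14, CD3D, CD68 and LYZ). All 20 together summed to 152 to 162 TPM in the combination and 146 to 217 TPM in disulfiram. FCGR3A, MS4A1, S100A8 and TYROBP were listed at 0 in all 6 libraries. Of 14 endothelial markers 1 reached it (PECAM1), and of 15 fibroblast and stellate cell markers 6 did. The deposited extraction text describes dissociated tissue and a droplet kit for single cells, which does not match a table with 1 column per Huh7 library. Whether the 3 libraries of a group came from different cultures is not labelled, so p-values speak only of the scatter among libraries, which may be technical. Depth is unknown because TPM does not keep it.

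RDM1 was the only gene that passed the test, and it fell. It encodes RAD52 motif-containing protein 1, an RNA- and DNA-binding protein related to the RAD52 family of recombination proteins, and lies at chr17:35918066-35930773 on the minus strand (hg38), with no overlapping annotated gene. Its level was 2.82, 3.16 and 2.98 TPM in the combination libraries and 8.23, 7.66 and 7.26 TPM in the disulfiram libraries. The highest combination library lay below the lowest disulfiram library, which was a condition for naming a gene here, and the 3 values within each group were close together. The difference on the log2(TPM + 1) scale was -1.13 (SE 0.12, n = 3 and 3; limma, adjusted p = 0.0143). This was 1 of 14810 genes past an adjusted p of 0.05, or 0.00675%, with none higher and 1 lower.

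Without disulfiram the order of RDM1 was the other way round. Controls held 4.81, 5.12 and 4.60 TPM and thalidomide alone 5.67, 7.06 and 5.41 TPM, a log2 difference of 0.26 (SE 0.12; limma, adjusted p = 0.877). Disulfiram alone stood above control by 0.58 (limma, adjusted p = 0.0101) and the combination stood below control by -0.55 (limma, adjusted p = 0.00991). These 2 comparisons share the control libraries. They also reuse the disulfiram and combination libraries by which RDM1 was picked, so their p-values are not independent of the naming. Of all genes, 14% passed in the first (9.37% higher, 4.67% lower) and 26.7% in the second (19.8% higher, 6.91% lower). RDM1 was therefore highest in disulfiram and lowest in the combination, with control and thalidomide between them. The call on RDM1 was lost, with the gene still lower, when any of 4 libraries was left out: adjusted p was 0.143 without combination library 1 and 0.146 without combination library 3, 0.153 without disulfiram library 1 and 0.0853 without disulfiram library 3. It was also lost when only the 6 compared libraries entered the fit (adjusted p = 0.0809), and over 23 alternatives it passed in 15.

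The other low genes missed the threshold. NFKBIE, which encodes an inhibitor that holds NF-kB in the cytoplasm, was at 8.67, 9.27 and 9.22 TPM in the combination and 16.13, 15.81 and 15.77 TPM in disulfiram. The groups did not overlap, which was a condition for naming the gene, and the combination lay near the control mean (9.32 ± 1.08, SD, n = 3). The log2 difference from disulfiram was -0.75 (SE 0.11; limma, adjusted p = 0.0955). Against control it was -0.03 in the combination (95% confidence interval -0.27 to 0.21) and 0.72 in disulfiram (limma, adjusted p = 0.00172), 2 comparisons that share the control libraries. They also reuse the combination and disulfiram libraries by which NFKBIE was picked, so this p is not independent of the naming.

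CEBPB, a bZIP transcription factor of the liver and of inflammation, was at 13.78, 13.95 and 13.76 TPM in the combination and 26.94, 28.54 and 21.67 TPM in disulfiram. Control libraries lay between these groups at 19.2 ± 2.84 TPM (SD, n = 3), and the difference of combination and disulfiram was -0.84 (SE 0.15; limma, adjusted p = 0.196). FTH1, the heavy chain of the iron store ferritin, was at 2723, 2823 and 2918 TPM in the combination and 3871, 3591 and 3428 TPM in disulfiram. Disulfiram was near the control mean for this gene (3534 TPM) and the combination was below it, with a difference from disulfiram of -0.36 (SE 0.07; limma, adjusted p = 0.196). FSCN3, a fascin of the testis, went from a mean of 5.31 TPM in disulfiram to 2.31 TPM in the combination (-0.93, SE 0.17), and TMEM160 from 177 to 104 TPM (-0.77, SE 0.14), both at an adjusted p of 0.196 in limma. In these genes too, no combination library reached a disulfiram library, but this was a condition for naming them. Of all genes, 6.66% met it on the low side.

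UBE2S, which encodes the ubiquitin-conjugating enzyme that extends chains for the anaphase-promoting complex, was named after its values were seen. It was at 134.8, 144.0 and 144.1 TPM in the combination and 355.4, 357.1 and 287.2 TPM in disulfiram. Its difference of -1.23 (SE 0.27) had an adjusted p of 0.233 in limma with all 12 libraries and of 0.0403 with only the 6 compared ones. The controls, at 206.2, 182.6 and 444.7 TPM, spread more widely than either compared group. SNORA53, a small nucleolar RNA, was the other gene that passed with only the compared libraries (limma, adjusted p = 0.0486). It was listed at 0 in all combination and thalidomide libraries, at 1.90, 2.11 and 2.10 TPM in disulfiram, and at 0, 2.32 and 1.96 TPM in control. It met the filter of 1 TPM in 3 libraries only through disulfiram, where it was high. Its call is therefore not independent of that filter.

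The 6 genes highest by p missed the threshold as well, with adjusted p from 0.196 to 0.233. UTRN, the dystrophin relative utrophin, was at 17.55, 12.17 and 18.68 TPM in the combination and 8.05, 7.40 and 9.0 TPM in disulfiram, a log2 difference of 0.89 (SE 0.16). PRPF38B, a factor linked to pre-mRNA splicing, was at 13.98, 8.96 and 12.27 TPM against 6.36, 4.38 and 6.21 TPM (0.93, SE 0.17). RAP2C, a small GTPase of the RAS superfamily, was at 17.63, 15.34 and 19.21 TPM against 10.04, 6.93 and 11.44 TPM (0.83, SE 0.16). In these 3 genes control and thalidomide libraries lay near the disulfiram libraries, and the second combination library was the lowest of its group. DMTF1, a MYB-like transcription factor that binds cyclin D, differed by 1.08 (SE 0.23), USP15, a deubiquitinase, by 0.84 (SE 0.18), and RPL36AL, a ribosomal protein gene, by 0.42 (SE 0.09). Without the second combination library UTRN, PRPF38B, RAP2C, RPL36AL and USP15 passed on the high side, with adjusted p from 0.0463 to 0.0482, and NFKBIE, CEBPB, FSCN3, FTH1 and TMEM160 on the low side. In that setting 203 of 14810 genes passed, and 0 to 2 when any other of the 6 libraries was left out. The 170 higher genes had a median GC content (share of G and C bases in exons) of 40.6%. The 33 lower genes had one of 59.2%, against 48.7% over all genes.

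**Figure D1:**
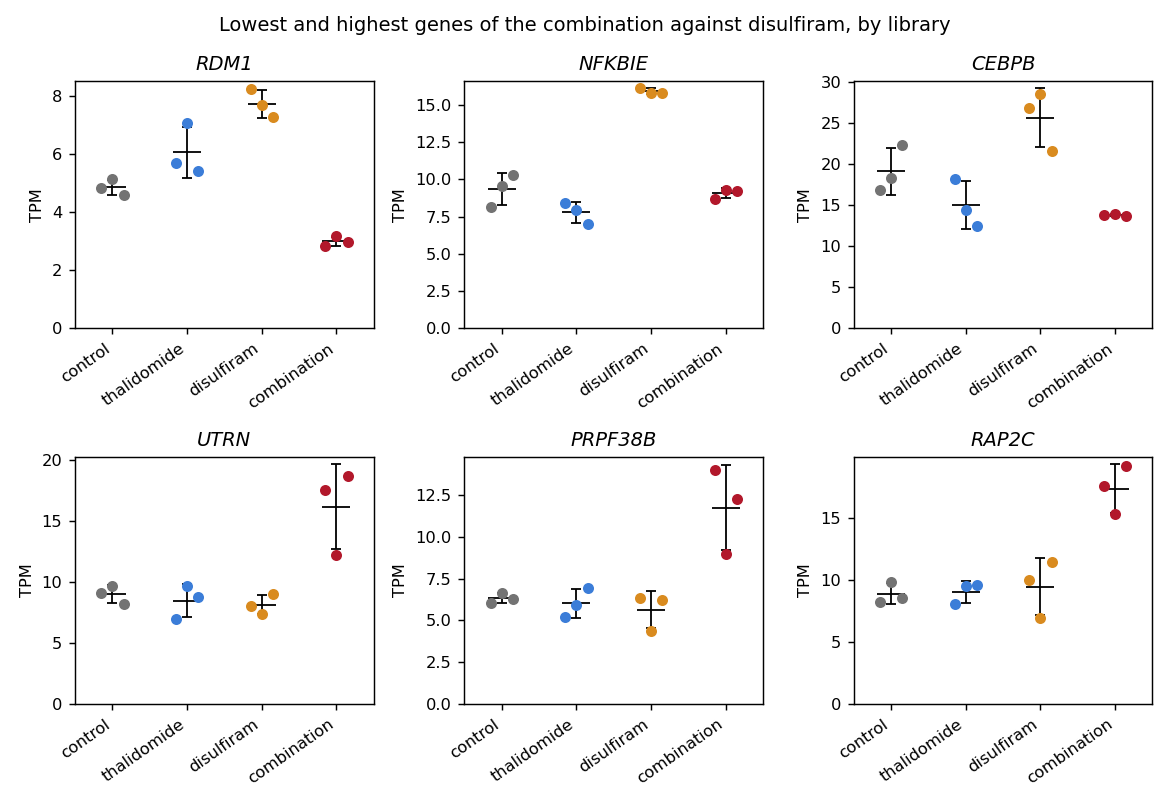
Levels in TPM (vertical axes, from 0) of the 3 lowest and 3 highest genes by p in the combination against disulfiram, in the 4 groups along the horizontal axis. Each point is 1 library, the long bar is the group mean and the error bar 1 SD (n = 3). RDM1 is at 2.82 to 3.16 TPM in the combination and 7.26 to 8.23 TPM in disulfiram, and the spread within the combination is wider for UTRN and PRPF38B than for the genes of the upper row.

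The 6 genes of that plot differed in base composition as well as in direction, which the following stretches show. Each is 90 bases from the middle of the longest coding exon of the gene's longest coding transcript (GENCODE 29, hg38, 5′ to 3′ on the gene's strand), with G and C in capitals.
RDM1 (chr17:35930121-35930210, minus strand, exon 2): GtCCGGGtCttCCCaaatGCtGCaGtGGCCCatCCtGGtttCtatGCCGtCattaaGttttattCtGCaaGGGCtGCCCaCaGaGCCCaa
NFKBIE (chr6:44265328-44265417, minus strand, exon 1): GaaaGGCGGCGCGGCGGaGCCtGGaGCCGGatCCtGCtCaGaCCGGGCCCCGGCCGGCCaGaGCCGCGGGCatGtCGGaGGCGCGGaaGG
CEBPB (chr20:50191507-50191596, plus strand, exon 1): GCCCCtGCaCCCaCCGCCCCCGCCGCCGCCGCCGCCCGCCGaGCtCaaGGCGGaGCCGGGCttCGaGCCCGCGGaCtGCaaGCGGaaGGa
UTRN (chr6:144748336-144748425, plus strand, exon 54): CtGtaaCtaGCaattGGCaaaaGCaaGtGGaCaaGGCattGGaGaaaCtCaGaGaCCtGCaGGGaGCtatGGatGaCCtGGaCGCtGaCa
PRPF38B (chr1:108699545-108699634, plus strand, exon 6): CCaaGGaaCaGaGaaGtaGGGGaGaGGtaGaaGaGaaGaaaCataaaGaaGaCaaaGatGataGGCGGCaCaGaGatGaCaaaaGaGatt
RAP2C (chrX:132214264-132214353, minus strand, exon 3): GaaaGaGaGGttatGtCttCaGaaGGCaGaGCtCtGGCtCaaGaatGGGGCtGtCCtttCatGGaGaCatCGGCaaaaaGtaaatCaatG
G and C made up 77.8% of the stretch of NFKBIE and 80.0% of that of CEBPB, against 50.0% for UTRN, 42.2% for PRPF38B and 45.6% for RAP2C, with RDM1 at 53.3%. Over all exons the GC content was 61.0% in NFKBIE and 66.2% in CEBPB, 43.0% in UTRN, 39.2% in PRPF38B and 42.5% in RAP2C, and 48.0% in RDM1. The median gene tested was at 48.7%.

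GC content tracked the difference across all genes. Among 14520 genes with a GC value, the Spearman correlation of the log2 difference with exon GC content was -0.66, given as a description, since all genes share the same 6 libraries. In the quintile of genes with the lowest GC content (21.3% to 41.5%) the median difference was 0.39 and 94.9% of genes had a positive value. The next quintiles had medians of 0.23, 0.04 and -0.06, and the quintile with the highest GC content (58.0% to 84.4%) had a median of -0.11 with 22.5% positive. Over all 14810 genes the median was 0.06. The correlation with exon length was 0.19 and that with mean level -0.15.

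The counts at an unadjusted p below 0.05 followed the same gradient. Of all genes, 2002 (13.5%) were higher and 612 (4.13%) lower, but 35.2% of the lowest quintile were higher and 0.413% lower, while in the highest quintile 0.861% were higher and 9.78% lower. Non-overlapping groups were found for 1443 genes (9.74%) on the high side and 986 (6.66%) on the low side. With median-of-ratios scaling the unadjusted counts were 1344 and 1208, and with quantile normalization 1480 and 1305. Both scalings moved the median gene by -0.09. The median standard error was 0.162, and for 12994 genes (87.7%) the 95% confidence interval of the difference lay within 2-fold in either direction.

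The libraries were not alike in this respect. Set against the mean of disulfiram, combination libraries 1 and 3 carried the gradient and library 2 was nearly flat. Of the 9 pairs of single libraries, 7 had a negative correlation with GC content, the lowest at -0.75. Combination library 2 gave 0.27 against disulfiram library 1 and 0.12 against disulfiram library 3. Within each group the second library stood apart: its deviation from the group mean correlated with GC content at 0.69 in the combination and 0.63 in disulfiram, and the other 4 libraries gave -0.62 to -0.32. The TPM-weighted GC content was 51.0 ± 0.402% in the combination and 51.4 ± 0.392% in disulfiram (SD, n = 3 each), and the ranges of the groups overlapped (exact permutation test, two-sided, p = 0.30; 3 against 3 cannot give less than 0.10, so this test could not have passed). Without both second libraries the gene-wise correlation was -0.64. Between thalidomide alone and control, libraries that this comparison does not use, it was 0.21.

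**Figure D2:**
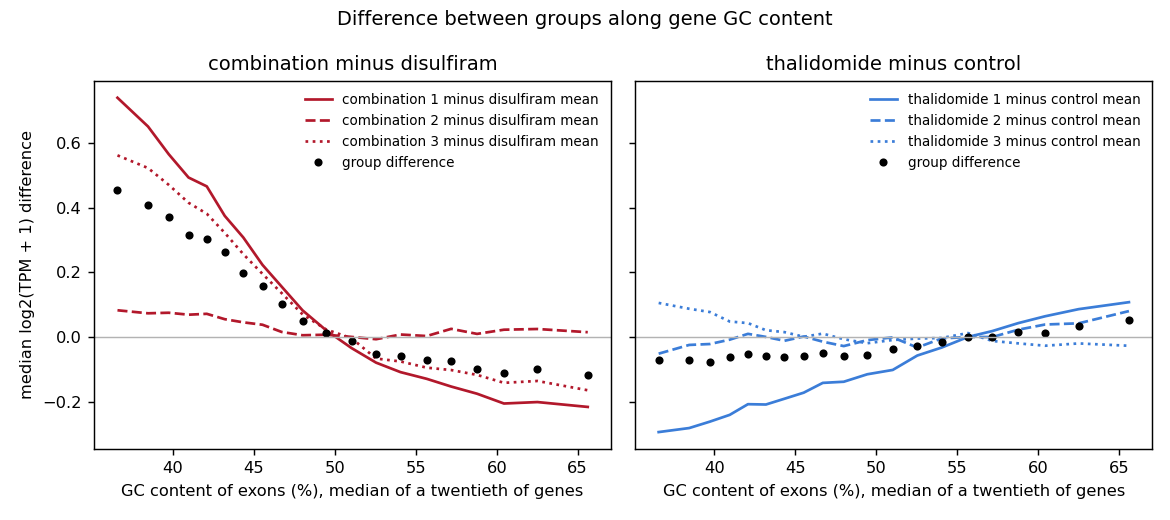
Median log2(TPM + 1) difference (vertical axis) against exon GC content in percent (horizontal axis) in twentieths of the genes, for combination minus disulfiram on the left and thalidomide minus control on the right. Lines are single libraries minus the mean of the other group and points the group difference. Combination libraries 1 and 3 fall steeply with GC content, library 2 stays near 0, and on the right thalidomide library 1 slopes the other way.

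A GC correction, which removed each library's smooth trend along GC content, left the correlation at 0.01 and the medians of the quintiles at 0.04 to 0.05. RDM1 then stood at -1.15 (limma, adjusted p = 0.00421). A second gene passed, the antisense gene AC005759.1 (corrected log2 difference 1.55, limma, adjusted p = 0.0434). It was at 1.62, 1.97 and 3.26 TPM in the combination and 0.32, 0.34 and 0 TPM in disulfiram. It met the filter of 1 TPM in 3 libraries only through the combination, where it was high. Its call is therefore not independent of that filter. Together with RDM1 it was 0.0135% of genes. At an unadjusted p below 0.05, 1069 genes (7.22%) were higher and 479 (3.23%) lower after the correction. NFKBIE was at -0.60 and CEBPB at -0.65 after it, PRPF38B at 0.60, UTRN at 0.68 and RAP2C at 0.61, all missing the threshold. The cause of the gradient was not tested.

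No member of the 44 gene lists passed in the comparison with disulfiram, so the lists are described by their values. Machinery of thalidomide comes first. Of 29 genes of the cereblon ligase and its known drug-dependent substrates 25 were tested, and 7 were higher and 0 lower at an unadjusted p below 0.05, where all genes gave 13.5% and 4.13%. After the GC correction 4 were higher and 1 lower, where all genes gave 7.22% and 3.23%. Their median was 0.24 at a median GC content of 44.7%, and 0.08 after the GC correction. CRBN, which encodes cereblon, was at 26.51, 15.33 and 22.20 TPM in the combination and 20.69, 9.76 and 15.79 TPM in disulfiram. The groups overlapped, the second library was lowest in both, and the difference of 0.47 (SE 0.24; limma, adjusted p = 0.311) was 0.08 with the correction. NEDD8, the ubiquitin-like activator of cullins, differed by 0.18 and DDB1, the adaptor of the ligase, by -0.10.

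ZNF692, a zinc finger substrate of cereblon named after its values were seen, was at 34.02, 30.99 and 35.86 TPM in the combination and 22.63, 24.55 and 25.89 TPM in disulfiram. Every combination library lay above every disulfiram library, with a difference of 0.45 (SE 0.14; limma, adjusted p = 0.249) and of 0.59 after the correction, its GC content being 58.6%. Thalidomide alone was on the same side, at a mean of 40.4 TPM against 20.8 TPM in control (0.93, SE 0.14; limma, adjusted p = 0.158). SALL4, another substrate and also named after its values were seen, was at 3.05, 1.51 and 2.27 TPM against 1.80, 1.68 and 3.02 TPM, which overlapped (0.05, SE 0.22).

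Among the known targets of disulfiram, ALDH2, the mitochondrial aldehyde dehydrogenase, was at 29.65, 31.85 and 32.15 TPM in the combination and 29.45, 30.52 and 28.57 TPM in disulfiram, a difference of 0.08 (95% confidence interval -0.12 to 0.28), and both groups were below control (47.0 TPM). NPLOC4 was at 51.76, 61.24 and 60.17 TPM against 59.97, 67.34 and 61.34 TPM (-0.12, interval -0.32 to 0.07). ALDH1A1, a cytosolic aldehyde dehydrogenase that also oxidises retinal and is the most abundant of its list, was at 605.7, 427.3 and 576.4 TPM against 473.5, 296.4 and 399.6 TPM. The groups overlapped, and the difference of 0.47 (interval 0.07 to 0.87; limma, adjusted p = 0.257) was 0.19 after the GC correction. Among 15 tested aldehyde dehydrogenase genes the median was 0.04. ALDH1A1 was the 1 higher and 0 were lower at an unadjusted p below 0.05 (all genes 13.5% and 4.13%). After the GC correction 0 were higher and 0 lower (all genes 7.22% and 3.23%). In 35 genes of the proteasome and the p97 pathway the median was 0.08, with 9 higher and 1 lower at an unadjusted p below 0.05 (all genes 13.5% and 4.13%). After the correction 4 of these were higher and 1 lower (all genes 7.22% and 3.23%). The most abundant members, the subunit genes PSMB4 (0.02, interval -0.16 to 0.20) and PSMB6 (0.03, interval -0.14 to 0.20), lay close to 0.

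Stress genes that separate disulfiram from control did not differ past the threshold when thalidomide was added, within wide intervals. MT1G, a metallothionein, was at 563.5, 534.3 and 574.1 TPM in the combination and 1059, 601.6 and 633.4 TPM in disulfiram, against 41.9 TPM in control. MT2A was at 887.3, 749.8 and 891.4 TPM against 1819, 956.8 and 931.9 TPM, with control at 354 TPM. For both genes the combination lay below all disulfiram libraries, the first disulfiram library was far above the other 2, and the differences of -0.41 (SE 0.26) and -0.48 (SE 0.26) missed the threshold (limma, adjusted p = 0.394 and 0.327). The 12 tested genes of metallothioneins and zinc export had a median of -0.22, and -0.15 with the GC correction, but only MT1H, at under 4 TPM in every library, was past an unadjusted p of 0.05, and it was higher (named for this after its values were seen). Of all genes, 13.5% were higher and 4.13% lower at that level. Metallothionein genes are near-identical copies, so reads may be split among them.

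HSPA6, a heat shock protein hardly seen in unstressed cells, was at 76.30, 44.84 and 66.24 TPM in the combination and 43.94, 58.52 and 43.98 TPM in disulfiram, against 0.103 TPM in control (difference from disulfiram 0.33, interval -0.07 to 0.72). CRYAB, a small heat shock protein of the lens and muscle, was at 305.2, 300.9 and 319.0 TPM against 150.8, 360.3 and 235.9 TPM, against 2.14 TPM in control (0.40, interval -0.17 to 0.96). Both sets of libraries overlapped. Across 28 heat shock chaperone genes the median was 0.17 (0.12 corrected), with 2 higher and 1 lower at an unadjusted p below 0.05 (all genes 13.5% and 4.13%). After the correction 3 were higher and 1 lower (all genes 7.22% and 3.23%). The most abundant members were HSPB1 (-0.06, SE 0.12) and HSP90AB1 (0.13, SE 0.06). In single combination libraries the list median ran from -0.06 in the second to 0.35 in the first.

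Of 29 genes of endoplasmic reticulum chaperones and the unfolded protein response, 9 were higher and 0 lower at an unadjusted p below 0.05 (all genes 13.5% and 4.13%), with a median of 0.17. After the correction 4 were higher and 1 lower (all genes 7.22% and 3.23%), with a median of 0.09. CALR and P4HB, its most abundant members, were not among them (-0.02 and -0.18). HSP90B1, the chaperone GRP94, named after its values were seen, was at 111.8, 63.26 and 87.72 TPM against 54.40, 41.92 and 58.43 TPM (0.73, SE 0.19; limma, adjusted p = 0.243). The 30 genes of ATF4 and the integrated stress response had a median of -0.03. ATF4, their transcription factor, differed by 0.10 (interval -0.15 to 0.35) and CHAC1, a glutathione-degrading target of it, by -0.03 (interval -0.70 to 0.64). DDIT4, an inhibitor of mTORC1 named after its values were seen, was at 48.19, 53.35 and 51.66 TPM in the combination, near control (48.1 TPM), and at 83.93, 95.85 and 105.0 TPM in disulfiram (-0.88, SE 0.26; limma, adjusted p = 0.249).

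**Figure D3:**
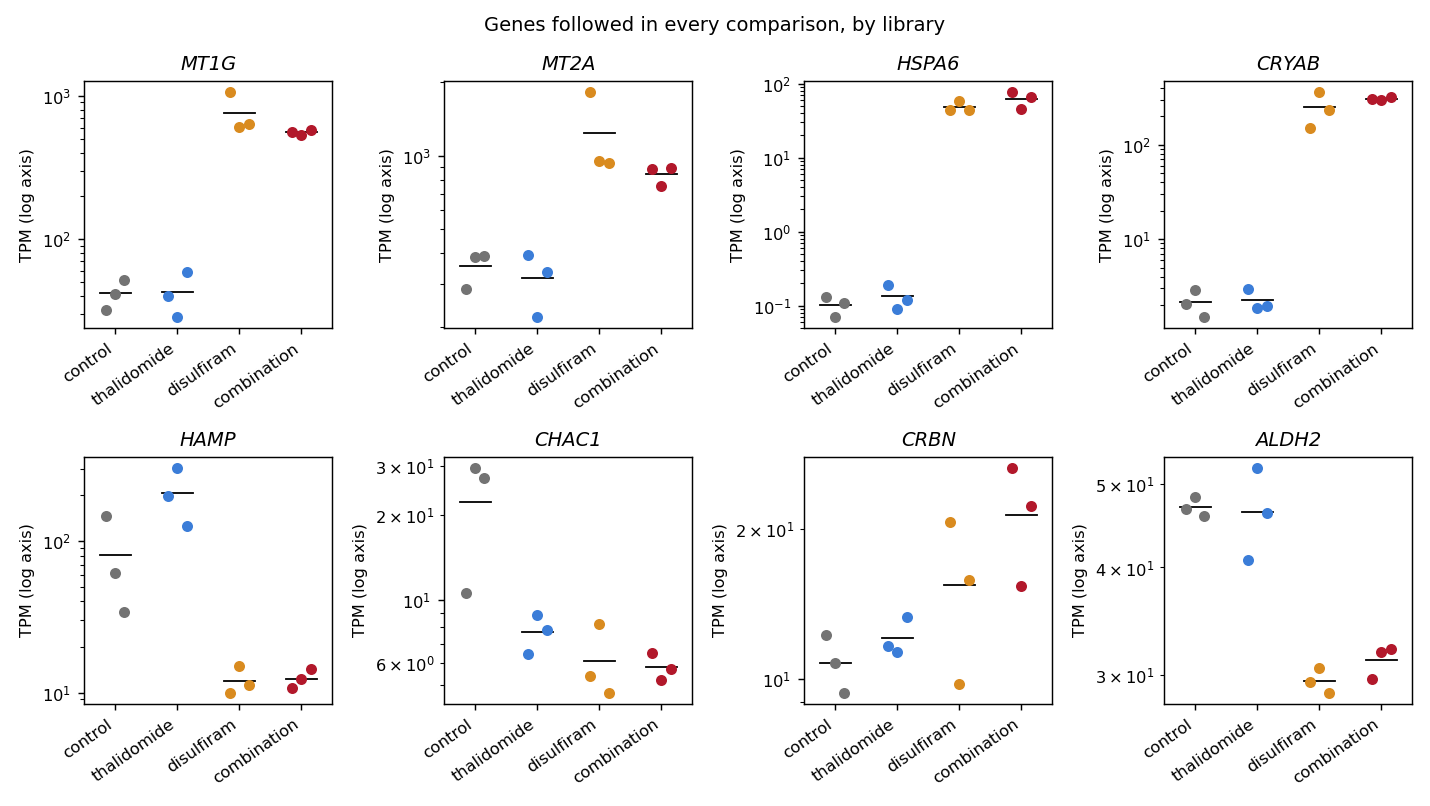
Levels in TPM on log axes of 8 genes in the 4 groups, with 1 point per library and a bar at the group mean. MT1G, MT2A, HSPA6 and CRYAB are high in both groups with disulfiram and low in the others, HAMP and ALDH2 are low in both, and for CRBN the second library is the lowest of each group with disulfiram.

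All 34 genes of serine-arginine and other splicing factors were tested and all had a positive difference, with a median of 0.35. Of all 14810 genes, 8685 were positive. At an unadjusted p below 0.05, 20 were higher and 0 lower (all genes 13.5% and 4.13%), and in 16 the combination libraries lay above all disulfiram libraries (all genes 9.74%). The list's median GC content was 40.8%, near the lowest quintile of all genes, whose median difference was 0.39. After the correction the list median was 0.10, with 12 higher and 0 lower (all genes 7.22% and 3.23%). Of the 34 genes, 24 were then positive, where 9058 of all 14810 genes were. HNRNPA1, an abundant RNA-binding protein that shapes splice site choice, was at 1427, 1132 and 1347 TPM in the combination and 926.0, 919.4 and 1033 TPM in disulfiram (0.44, SE 0.10; limma, adjusted p = 0.237; 0.22 corrected). HNRNPC, which binds uridine tracts, was at 598.8, 507.3 and 584.5 TPM against 487.6, 473.5 and 490.9 TPM (0.22, SE 0.10; -0.13 corrected). In both genes the second library was the lowest combination library.

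Of 26 tested homologous recombination genes 9 were higher and 1 lower at an unadjusted p below 0.05, against 13.5% and 4.13% of all genes and 35.2% and 0.413% of the lowest GC quintile. Their median was 0.43 at a GC content of 41.5%. After the correction the median was 0.15, with 5 higher and 1 lower (all genes 7.22% and 3.23%). Of 32 tested G2/M and mitosis genes 8 were higher and 0 lower (all genes 13.5% and 4.13%), with a median of 0.31. After the correction 5 were higher and 0 lower (all genes 7.22% and 3.23%), with a median of 0.14. UBE2C and CDC20, which serve the anaphase-promoting complex, were at -0.04 and -0.17. For 34 DNA replication genes the median was 0.10, with 3 higher and 2 lower (all genes 13.5% and 4.13%), and 0 and 0 after the correction.

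KRAB zinc finger genes, which encode repressors that silence transposable elements, were tested for 62 of 77 members. Their median was 0.30 at a GC content of 41.6%, with 14 higher and 0 lower at an unadjusted p below 0.05 (all genes 13.5% and 4.13%) and 18 above all disulfiram libraries (all genes 9.74%). After the correction it was 0.11, with 5 higher and 1 lower (all genes 7.22% and 3.23%). In single combination libraries the median ran from 0.06 in the second to 0.50 in the first. The most abundant members, ZNF585A (0.18, SE 0.22) and ZNF544 (-0.03, SE 0.17), did not stand apart from 0.

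The signal recognition particle carries nascent secreted proteins to the endoplasmic reticulum. Its genes and other abundant small RNAs gave the highest median of all lists, 0.47. All 12 tested genes were positive, where 8685 of all 14810 genes were. At an unadjusted p below 0.05, 5 were higher and 0 lower (all genes 13.5% and 4.13%). The GC content of the list, 53.2%, was above the median gene. After the correction the median was 0.22, again with 12 positive (9058 of all 14810 genes were), and 4 were higher and 0 lower (all genes 7.22% and 3.23%). RN7SL2, an RNA of the particle, was at 484.9, 587.4 and 656.6 TPM in the combination and 259.3, 410.2 and 432.1 TPM in disulfiram (0.67, SE 0.29; limma, adjusted p = 0.269; 0.84 corrected). Control libraries held more than either, at a mean of 1509 TPM. SRP9, a protein subunit, was at 714.0, 454.8 and 650.5 TPM against 497.7, 335.3 and 454.7 TPM (0.49, SE 0.18; 0.12 corrected). RN7SL genes are near-identical copies, and how the library kit selected RNA is not given for these libraries in a form that matches the table.

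Mitochondrially encoded genes were the opposite case, with negative values at low GC content. All 15 were tested, 14 had a negative difference (6125 of all 14810 genes did), and the median was -0.16 at a GC content of 44.3%. At an unadjusted p below 0.05, 0 were higher and 4 lower (all genes 13.5% and 4.13%). After the correction all 15 were negative (5752 of all 14810 genes were), with a median of -0.30, 0 higher and 10 lower (all genes 7.22% and 3.23%). The correction curve came from all genes with a GC value and lowered genes of low GC content. It took the median of the quintile from 41.5% to 46.1% GC from 0.23 to 0.05. The mitochondrial genes were lowered along with them. With quantile normalization the list median was -0.09, and with median-of-ratios scaling -0.27. MT-CO2, a subunit of cytochrome c oxidase, was at 15315, 17619 and 15282 TPM in the combination and 17178, 18275 and 20448 TPM in disulfiram, so that the second combination library lay within disulfiram (-0.21, SE 0.08; limma, adjusted p = 0.256). MT-ATP8, of ATP synthase, was at 16475, 21925 and 18073 TPM against 22075, 22367 and 23780 TPM (-0.28, SE 0.10; limma, adjusted p = 0.256). Protein-coding mitochondrial genes made up a share of the library's TPM of 8.24%, 10.3% and 8.56% in the combination and 10.0%, 9.96% and 11.1% in disulfiram. The corrected list median was -0.46 and -0.40 in combination libraries 1 and 3 and -0.02 in library 2. The 38 nuclear genes of oxidative phosphorylation had a median of 0.06.

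Of 32 genes of glycolysis and the hypoxia response 26 were negative (6125 of all 14810 genes were), with a median of -0.18. At an unadjusted p below 0.05, 0 were higher and 5 lower (all genes 13.5% and 4.13%). After the correction the median was -0.14, again with 26 negative (5752 of all 14810 genes were), and 0 were higher and 3 lower (all genes 7.22% and 3.23%). GAPDH and ENO1, glycolytic enzymes, differed by -0.16 (SE 0.11) and -0.21 (SE 0.11) with overlapping libraries. GPI, the glycolytic isomerase, named after its values were seen, was at 280.8, 322.2 and 266.5 TPM against 346.7, 370.8 and 382.1 TPM, with no overlap (-0.34, SE 0.08; limma, adjusted p = 0.243). EGLN3, an oxygen-sensing prolyl hydroxylase named in the same way, was at 37.66, 34.92 and 32.97 TPM against 46.16, 45.20 and 52.49 TPM (-0.43, SE 0.14).

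Lists linked to known uses of thalidomide were near the median gene or below it. Of 23 tested NF-kB and cytokine genes 1 was higher and 3 lower at an unadjusted p below 0.05 (all genes 13.5% and 4.13%), with a median of -0.10. After the GC correction 0 were higher and 2 lower (all genes 7.22% and 3.23%), with a median of -0.05. Besides NFKBIE, RELB, an NF-kB subunit named after its values were seen, was at 22.10, 23.20 and 22.94 TPM against 27.67, 33.00 and 29.68 TPM (-0.39, SE 0.11, limma adjusted p = 0.243). The cytokine genes IL32 and CCL20 differed by -0.19 (SE 0.09) and 0.01 (SE 0.25). Of 21 tested angiogenic factors 1 was higher and 0 lower (all genes 13.5% and 4.13%), with a median of -0.07. After the correction 0 were higher and 0 lower (all genes 7.22% and 3.23%), with a median of -0.01. VEGFA, the vascular growth factor, was at 96.52, 94.33 and 95.52 TPM against 105.6, 107.2 and 140.7 TPM (-0.29, SE 0.15, limma adjusted p = 0.315).

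Interferon response genes, 22 tested of 31, had 3 higher and 4 lower at an unadjusted p below 0.05 (all genes 13.5% and 4.13%), with a median of -0.11. After the GC correction 1 was higher and 4 lower (all genes 7.22% and 3.23%), with a median of -0.03. Their abundant member ISG15 was at 451.9, 551.2 and 511.5 TPM against 603.4, 568.3 and 554.3 TPM (-0.19, SE 0.11). OAS1, which senses double-stranded RNA and was named after its values were seen, was at 15.31, 12.91 and 10.97 TPM against 30.00, 17.54 and 18.26 TPM (-0.68, SE 0.23; limma, adjusted p = 0.253). Both genes had no overlap between the groups. Iron handling genes, 22 tested, had 1 higher and 5 lower (all genes 13.5% and 4.13%) and a median of -0.07, with FTL, the ferritin light chain, at -0.17 (SE 0.07). After the correction 2 were higher and 2 lower (all genes 7.22% and 3.23%). HAMP, the iron hormone hepcidin, was at 10.63, 12.20 and 14.19 TPM against 9.95, 14.90 and 11.16 TPM, and both groups were below control (80.6 TPM).

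Among genes of hepatocyte function, ALB, serum albumin, was at 1259, 767.5 and 1065 TPM in the combination and 940.1, 586.2 and 951.9 TPM in disulfiram (0.32, interval -0.17 to 0.82; -0.01 after the GC correction, its GC content being 39.1%). AFP, alpha-fetoprotein, was at 277.4, 104.4 and 147.1 TPM against 169.9, 117.2 and 114.3 TPM (0.30, interval -0.49 to 1.09). NID2, a basement membrane protein, was at 58.84, 56.11 and 53.46 TPM against 58.43, 56.87 and 61.36 TPM (-0.07, interval -0.26 to 0.12). The libraries of these 3 genes overlapped between the groups. Across 26 tested secreted hepatocyte proteins the combination lay above all disulfiram libraries in 5 and below them in 1 (all genes 9.74% and 6.66%). At an unadjusted p below 0.05, 4 were higher and 1 lower (all genes 13.5% and 4.13%). After the GC correction 0 were higher and 0 lower (all genes 7.22% and 3.23%), with a median of 0.02. Median differences were 0.07 for that list, -0.04 for 21 hepatocyte transcription factors, -0.01 for 26 cholesterol genes, 0.07 for 24 fatty acid genes and 0.05 for 74 cytosolic ribosomal protein genes. Across all 44 lists, the correlation of list median with list GC content was -0.63, and -0.34 after the correction, given as a description. The 42 lists with at least 5 tested genes were also followed under other scalings. Of their medians, 31 kept their sign and 39 their side of the median gene with median-of-ratios scaling. These counts were 36 and 37 with quantile normalization, and 34 and 31 with the GC correction.

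**Figure D4:**
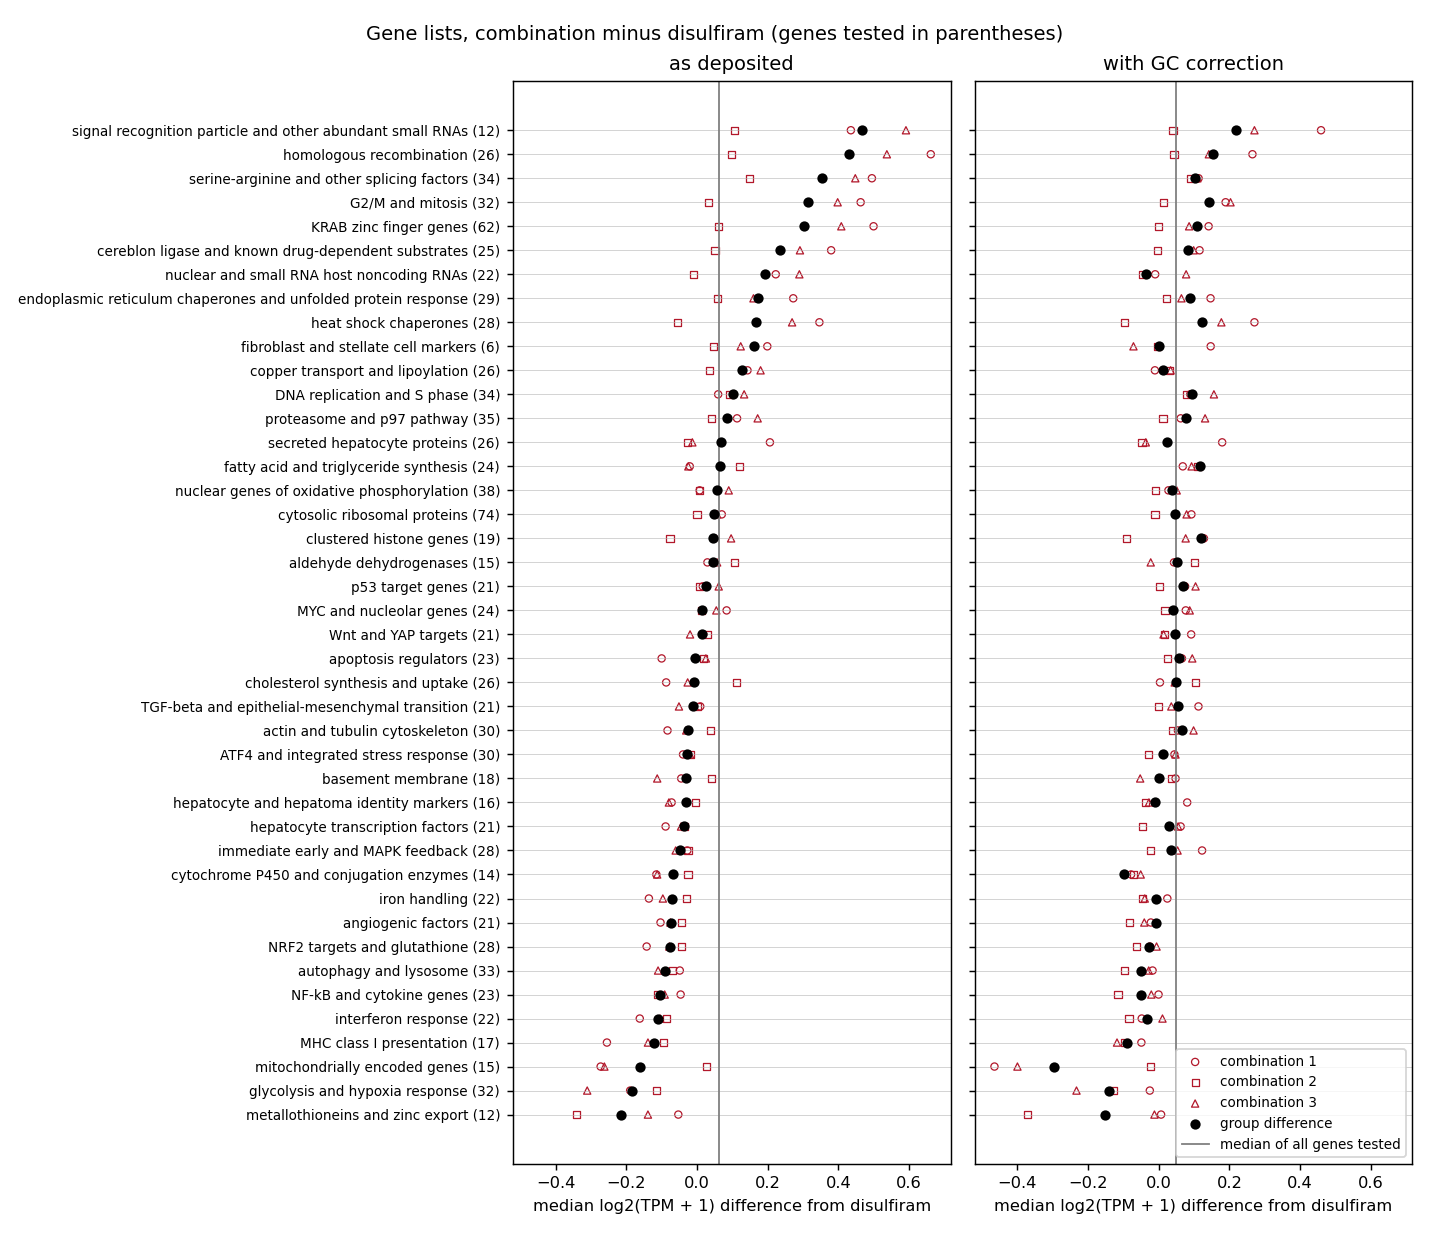
Median log2(TPM + 1) difference from disulfiram (horizontal axes) of 42 gene lists, as deposited on the left and after the GC correction on the right. Open marks are single combination libraries minus the disulfiram mean, filled points the group difference, and the vertical line the median of all genes tested. The splicing factor list is at 0.35 on the left and 0.10 on the right, and the mitochondrially encoded list at -0.16 and -0.30.

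Thalidomide without disulfiram was set beside these values on libraries that the central comparison does not use. No gene of 14810 passed (limma, 0%), and at an unadjusted p below 0.05, 335 (2.26%) were higher and 516 (3.48%) lower. Groups did not overlap for 578 genes (3.9%) on the high side and 960 (6.48%) on the low side. NID2 came nearest, at 65.12, 59.89 and 64.78 TPM with thalidomide and 94.56, 98.11 and 115.3 TPM in control (-0.69, SE 0.09; limma, adjusted p = 0.0601), and it passed with the GC correction (adjusted p = 0.0358). HAMP was at a mean of 209 TPM with thalidomide and 80.6 TPM in control (1.52, SE 0.42; limma, adjusted p = 0.632), where the interval of the combination against disulfiram ran from -0.88 to 0.97. CHAC1 was at 7.70 against 22.4 TPM (-1.31, SE 0.31; limma, adjusted p = 0.501). The Pearson correlation of the 2 differences across genes, which share no library, was -0.02, and 0.09 with the GC correction.

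The interaction, the difference made by thalidomide with disulfiram minus that without it, passed for no gene (limma, 0%), with 1199 (8.1%) higher and 359 (2.42%) lower at an unadjusted p below 0.05. RDM1 had the smallest p, with an interaction of -1.39 (SE 0.18; limma, adjusted p = 0.0596), and it passed with the GC correction at -1.42 (adjusted p = 0.0182). The interaction contains the difference by which RDM1 was picked. For NID2 the interaction was 0.62 (SE 0.12), for HAMP -1.47 (SE 0.60), for CHAC1 1.28 (SE 0.44) and for ATF4 0.40 (SE 0.16), each at an adjusted p of 0.456. Its median standard error, 0.229, was larger than that of the central comparison, and its correlation with GC content was -0.65.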

How the data were processed

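RNA of 12 Huh7 libraries in 4 groups of 3 was deposited as a table of TPM values by the authors. Reads were processed with HISAT2 2.0, StringTie 1.3.0 and hg38, per the submitters' processing notes. The sources used here give no annotation, filter, strand setting or depth. TPM sums to the same total in each library, so a change of abundant genes shifts all others.

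The deposited TPM were put on the log2(TPM + 1) scale and fitted with limma 3.58.1 (R 4.3.3, mean-variance trend, all 12 libraries, two-sided, Benjamini-Hochberg over 14810 genes, threshold 0.05). The pseudocount of 1 shrinks differences of genes with few TPM. Symbols, exon GC content and sequences came from GENCODE 29, which named 58611 of 59191 features. For the GC correction a lowess curve (span 0.3) of each library's deviation from the mean of all libraries was subtracted, and 290 genes without GC content were left as they were. On simulated data for this comparison with 14810 genes, 34.3% of genes changed 1.5-fold, 80.0% changed 2-fold and 98.3% changed 4-fold were called without a GC gradient. With a simulated gradient and no correction these shares were 22.9%, 68.6% and 100%. That gradient came out at a correlation of 0.29 with GC content, opposite in sign to the observed -0.66 and weaker. Noise was drawn independently for each gene. The shares therefore do not give the rate of detection under the gradient of these libraries.

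Genes and lists were chosen with earlier results of these data known. Named genes are those past the threshold, with mean TPM of at least 5 and no overlap between the groups, filled up to 6 in each direction by p, plus 13 followed genes and up to 3 members of a list past the threshold or else its 2 most abundant. Some genes that this rule names are not reported here. UTRN, RAP2C, DMTF1, USP15, CEBPB, FSCN3, FTH1, CRBN, CRYAB, NID2, NPLOC4, ALDH2, HSPA6 and UBE2S overlap other annotated genes, whose reads cannot be told apart without strand. Alternatives were other filters, pseudocounts, scalings, a replicate term, sample weights, GC correction and leaving out libraries.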

Additional observations from a re-analysis of the deposited data

Results flagged for a closer look

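In 3 of the genes reported here the libraries of combination and disulfiram did not overlap in one direction, and those of thalidomide and control did not overlap in the other. For RDM1 and USP15 the first of these was a condition for naming them. Between combination and disulfiram, 9.74% of all genes lay apart on the high side and 6.66% on the low side. Between thalidomide and control these shares were 3.9% and 6.48%. The share of all genes with both in opposite directions was not counted. RDM1 had an interaction of -1.39 on the log2 scale (limma, adjusted p = 0.0596): it was lower with thalidomide in the presence of disulfiram and higher without it. USP15 had an interaction of 1.06, with 16.22, 9.80 and 11.52 TPM in the combination, 8.27, 5.40 and 5.82 TPM in disulfiram, 4.26, 4.20 and 4.12 TPM with thalidomide alone and 4.53, 5.48 and 5.17 TPM in control. HSP90AB1, a cytosolic HSP90, had an interaction of 0.31. For USP15 and HSP90AB1 the adjusted p of the interaction was 0.456 in limma. None of the 3 passed the test of the interaction itself.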

How the results depend on the processing

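The comparison of combination and disulfiram, with 1 gene past the threshold, gave 7 genes with no filter, 2 with only the compared groups, 2 with the GC correction, 3 with sample weights, and 8 without both second libraries, with or without the GC correction. Leaving out 1 library gave 0 to 203 genes: 203 without combination library 2 (170 higher, with a median GC content of 40.6%, and 33 lower, with 59.2%, against 48.7% over all genes), and 0 without combination library 1 or 3 or disulfiram library 1 or 3. Thalidomide against control, with 0, gave 1 with a filter on mean TPM of at least 5, 3 with only the compared groups, 1 with the GC correction, 1 with sample weights, 1 without both second libraries, and 0 to 26 without 1 library, 26 without the first control. The interaction, with 0, gave 3 with no filter, 1 each with a pseudocount of 0.1, median-of-ratios scaling, quantile normalization, GC correction, sample weights and without both second libraries, and 0 to 1 without 1 library. The correlation with GC content stayed negative, from -0.72 to -0.42, under the alternatives that were run for it.

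Libraries were treated as unpaired, and whether equal numbers mark a shared day or batch is not known: deviations from the group means correlated at 0.26, 0.43 and 0.03 for equal numbers, combination libraries 1 and 2 correlated best with their own number, and combination library 3 with disulfiram library 1 (0.14). With a replicate block 0 genes passed (RDM1 at an adjusted p of 0.0577). Chosen after seeing the data, a block with only the compared groups gave 1736 genes (1530 higher, 206 lower), and with the GC correction added 0. Of the named genes' other values under alternatives, 2114 kept direction and call, 228 that missed the threshold changed sign, 40 gained and 8 lost the call (all RDM1), and no called value changed sign. Depth is unknown, so what it limits could not be set. The causes of these shifts were not tested.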
